A study of Schmidtea mediterranea with 96 samples.

Results

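Described here are 189 transcripts of the planarian *Schmidtea mediterranea*, of 36035 measured, that were more abundant in sorted stem cells than in other cells, lower in irradiated worms than in untreated ones, and close to their starting level throughout regeneration. They were chosen from measured values. L denotes the log2 ratio of 2 group means after 1 FPKM (sequenced fragments scaled to transcript length and library size) was added to each. A member had a mean of at least 5 FPKM in X1 cells, an L of at least 1 for X1 against Xins cells and for PIWI-1 high against PIWI-1 negative cells, and an L of -0.8 or lower for irradiated against untreated worms. Its L against 0 hr was under 1 in size at all 16 later times of the regeneration series. The successive steps left 6431, 1043, 907, 326 and finally 189 transcripts. The identifiers were not paired with gene names in the files used here, so neither known stem cell markers nor the functions of the members could be checked, and the members are named by identifier and described without roles.

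Neoblasts are the dividing cells of planarians and include the pluripotent stem cells that replace every tissue during normal turnover and after injury. A DNA dye separates dissociated cells into X1 cells, which hold more DNA than resting cells because they are replicating or about to divide, X2 cells, which mix neoblasts with their early descendants, and Xins cells, which remain after irradiation and are mostly differentiated. PIWI-1 is an Argonaute family protein made in neoblasts. It persists for a time in cells that have left the cycle, so its level separates stem cells from recent progeny and from mature cells. Ionizing radiation kills dividing neoblasts first, and transcripts made mainly in them are lost from the animal within about a day.

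The X1, X2 and Xins groups held 3 libraries each of live-sorted cells. PIWI-1 high, low and negative groups held 4 libraries each of fixed, sorted cells. Untreated worms and worms collected 24 hours after 10000 rads gave 3 libraries per group, each from 5 worms. Regenerating fragments gave 4 libraries at each of 17 times, at 0, 1, 3, 6, 9, 12, 24, 36, 48, 60 and 72 hr and at 4, 5, 6, 7, 10 and 14 days after a small piece was cut from one side of the body. All animals were labelled wild type and had been starved for 7 days or more. An asexual strain (CIW4) and a sexual strain (S2F8) were kept, and the labels do not tie a library to either. The labels do not give ages, and they do not say whether libraries of a group came from separate cultures or animals beyond the pools of worms, so p-values reflect only the spread from library to library, which may be technical.

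Libraries of sorted X cells and whole worms held 33.8 to 40.1 M reads, those of the PIWI-1 sorts 24.2 to 44.3 M and those of regeneration 9.54 to 20.2 M. The median member had 1460 to 1518 reads in the X1 libraries and 213 to 240 in the untreated worms. It had 80 to 106 reads at 0 hr, and 4 to 16 members had fewer than 10 there. In irradiated worms the median member had 61 to 65 reads, and 44 or 45 members had fewer than 10, so their remaining levels are imprecise.

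The contrasts that chose the members are described first, without tests. Members spanned a wide range of levels in X1, from 5.33 to 1362 FPKM with a median of 47.0. Their median was 13.3 FPKM in X2 and 8.60 in Xins. In the PIWI-1 sorts the median was 33.6 FPKM in the high, 11.4 in the low and 2.34 in the negative population. Whole worms carried less of them, with a median of 6.06 FPKM untreated and 1.58 after irradiation. The median L was 2.01 for X1 against Xins, with a range of 1.01 to 4.12, and 2.89 for PIWI-1 high against negative, with a range of 1.08 to 5.61. In bulk RNA, fewer cells of a type and less RNA per cell cannot be told apart, and this holds for every comparison below.

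**Figure D1:**
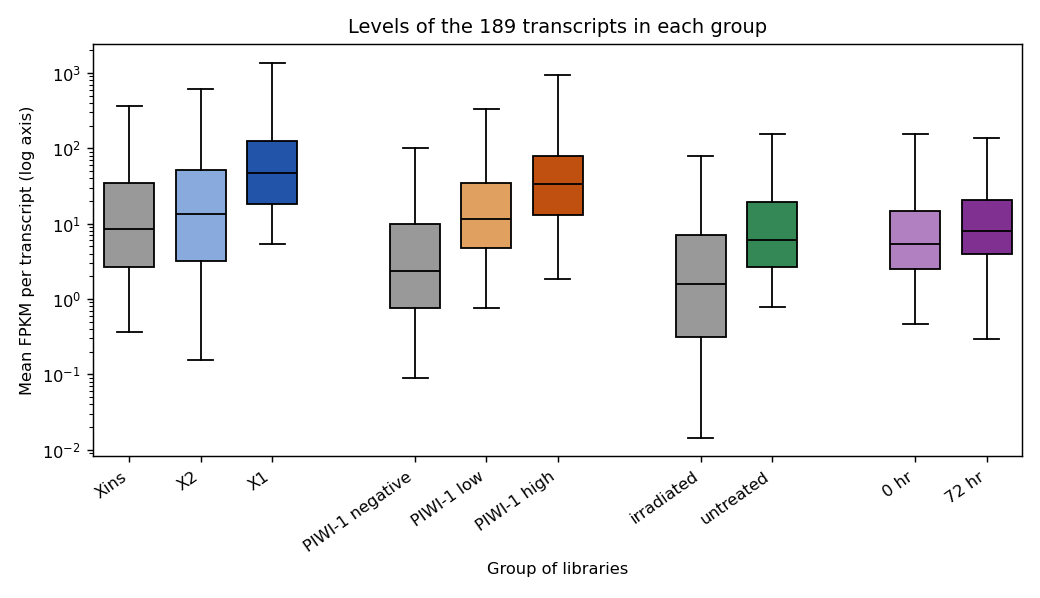
Mean FPKM of each of the 189 transcripts in 10 groups of libraries, on a log axis; boxes span the quartiles with the median as a line, and whiskers run from the lowest to the highest member. The median was 47.0 FPKM in X1 against 8.60 in Xins, 33.6 in PIWI-1 high against 2.34 in negative, and 6.06 in untreated against 1.58 in irradiated worms.

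SMED30018755 and SMED30017670 had the highest levels in X1. SMED30018755 measured 1263, 1324 and 1498 FPKM in the X1 libraries, 377, 416 and 413 in X2 and 186, 207 and 209 in Xins. All its X1 libraries lay above all its X2 libraries, and these lay above all Xins libraries. It is also the member nearest to the limit of steadiness, with an L of 0.995 at 72 hr, when its libraries held 115 to 137 FPKM against 60.1 to 69.4 at 0 hr. SMED30017670 measured 1125, 1246 and 1419 FPKM in X1 and 274, 307 and 305 in Xins. Its time course ran the other way, with 107 to 124 FPKM at 0 hr and 61.4 to 68.4 at 24 hr, an L of -0.87.

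The thresholds cut through continuous distributions. The lowest X1 mean among members was 5.33 FPKM, in SMED30024468, and SMED30020464 missed the minimum with 4.92. For X1 against Xins, SMED30001140 lay just inside with an L of 1.01 and SMED30012435 just outside with 0.9999. SMED30026292 passed the PIWI-1 step with 1.08, and SMED30016549 missed it with 0.93. At the irradiation step the nearest pair were SMED30020626 at -0.8005 and SMED30019559 at -0.7986. At the last step SMED30014970 lay just outside with 1.002.

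Members differed widely in how much was left in irradiated worms. The share of the untreated mean that was left ran from 0.451% to 55.9%, with a median of 30.6%. It was below 10% for 44 of 189 members, below 25% for 84 and below 50% for 156. The member with the lowest L was SMED30031235, which held 157, 151 and 156 FPKM in the untreated worms and 3.05, 3.53 and 4.65 in the irradiated ones, an L of -5.03. SMED30034520 had the next lowest L, -2.93, with 8.55, 9.34 and 8.95 FPKM untreated and 0.140, 0.214 and 0.549 irradiated. These 2 transcripts were also high in X1, at 928 ± 27.7 and 164 ± 17.2 FPKM (SD, n = 3). When libraries were rescaled by the median ratio, the members' median L after irradiation was -0.83 in place of -1.02, and 102 of the 189 still met the irradiation step, while every member kept the lower mean in irradiated worms.

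**Figure D2:**
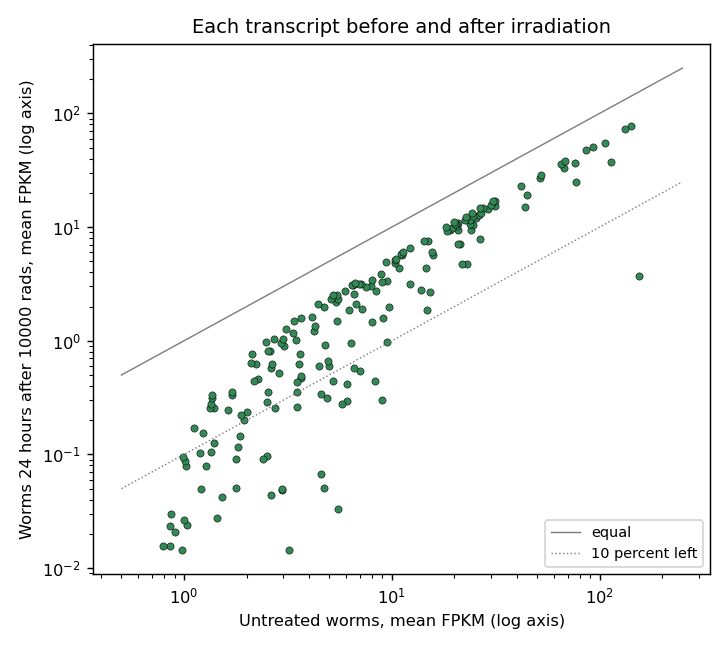
Mean FPKM of each of the 189 transcripts in untreated worms (x, log axis, n = 3 libraries) and 24 hours after 10000 rads (y, log axis, n = 3 libraries), with lines for equal levels and for 10% left. All points lie below the line of equal levels, 44 lie below the dotted line, and SMED30031235, at 154 FPKM untreated and 3.74 irradiated, stands far below the other abundant members.

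X2 cells were not part of the rule, although X1 and Xins, with which they are compared, were. Every member had a lower mean in X2 than in X1. Of 189 members, 122 were called higher in X1 than in X2 (adjusted p below 0.05, log2 difference 1 or more), against 5.39% of all 15347 transcripts tested. No member was called lower in X1, against 19.2% of all transcripts, and the lowest member difference was 0.06. For 185 members all X1 libraries lay above all X2 libraries, against 19.5% of all transcripts, and for none below, against 50.3%. The median difference was 1.45 over the members and -0.28 over all transcripts tested. Since members were chosen for high X1 levels, a share above the background was built into this comparison.

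SMED30012024 and SMED30018987 showed the largest differences between X1 and X2. SMED30012024 measured 78.7, 80.9 and 78.7 FPKM in X1, 1.71, 3.05 and 3.74 in X2 and 4.14, 4.33 and 2.37 in Xins. Its X2 and Xins libraries overlapped, and its X1 libraries stood far above both. The X1 to X2 difference was 4.43 ± 0.22 (log2, SE, n = 3 per group; limma, adjusted p = 5.78e-08). SMED30018987 had 81.1, 63.6 and 61.1 FPKM in X1 and 2.57, 3.04 and 2.27 in X2, a difference of 4.26 ± 0.17 (limma, adjusted p = 1.07e-08), and its 2.37, 3.50 and 3.43 FPKM in Xins again overlapped X2.

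Against Xins the X2 cells were much less distinct. X2 had the higher mean for 155 members and the lower mean for 34, and its libraries lay wholly above those of Xins for 120, against 18.6% of all transcripts. Only 16 members were called higher in X2 than in Xins, against 1.69% of all transcripts, and none was called lower, against 18.2%. The median difference was 0.52 over the members and -0.27 over all. Members were chosen for Xins levels well below X1, so low Xins values are built into this comparison and nothing is read from its shares against the background. In the first Xins library the members summed to 0.486% of all FPKM, and in the other Xins libraries to 0.592% and 0.596%. Without that library 9 members were called, and without the second Xins library 25 were. Median-ratio scaling moved the median of all transcripts by 0.33, from -0.27 to 0.06, the number of members called to 78 and the number with the lower mean in X2 from 34 to 13. No share of all transcripts called with scaling is given here to set beside the 78.

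Among the 16, SMED30032754 and SMED30021048 differed most. SMED30032754 measured 13.9, 15.0 and 13.3 FPKM in X2 and 3.17, 4.89 and 5.19 in Xins, a difference of 1.496 ± 0.16 (limma, adjusted p = 1.51e-05). In X1 it measured 26.9, 31.8 and 28.6 FPKM, so that its X2 level lay nearer to X1 than to Xins on the log scale. SMED30021048 measured 63.1, 67.7 and 69.9 FPKM in X2 and 19.9, 25.4 and 25.6 in Xins, a difference of 1.47 ± 0.11 (limma, adjusted p = 1.04e-06). For both transcripts all X2 libraries lay above all Xins libraries.

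The 34 members with a lower mean in X2 than in Xins had lower median levels than the other 155, also in X1. The split uses X2 and Xins, so levels in these groups are partly fixed by it. With median-ratio scaling 13 members had the lower mean in X2, so no separate class is read from the 34. Their median was 11.9 FPKM in X1 against 55.9 for the others, 1.69 against 21.1 in X2 and 2.02 against 13.8 in Xins. The median share left after irradiation was 19.7% for the 34 and 33.6% for the 155, and the median recovered transcript length 1447 and 893 bases. None of the 34 was called lower in X2, and for 3 members all X2 libraries lay below all Xins libraries, against 45.1% of all transcripts.

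PIWI-1 low cells, which were not part of the rule either, fell between high and negative cells for all 189 members. Of the members, 85 were called higher in high than in low cells, against 2.39% of the 15896 transcripts tested, and none lower, against 7.2%. Leaving out any 1 of the 8 high and low libraries lowered the count. It was 50 without the first PIWI-1 high library and at most 76, without the third. Between low and negative cells 161 members were called higher in low, against 13.8% of all transcripts, and none lower, against 18.9%. The median differences were 1.19 for high against low and 1.78 for low against negative, where those over all transcripts were -0.04 and -0.06. All libraries of high lay above all of low for 121 members, against 6.79% of all transcripts, and all of low above all of negative for 159, against 14.5%. No member had the reverse, against 17.8% and 13.3%. High and negative cells chose the members, so these counts too are raised by the choice. The tests did not pair libraries of the same sort, so their SE and p-values include the spread between sorts. Counts with the sort number as a block are given below.

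The 4 sorts gave the members different weights. Their summed FPKM was 1.52%, 1.87%, 0.983% and 1.17% of each PIWI-1 high library in sorts 1 to 4, 0.742%, 0.837%, 0.452% and 0.561% of the low libraries and 0.204%, 0.268%, 0.0867% and 0.158% of the negative ones. The order of the sorts was the same in all 3 populations, with sort 2 at the top and sort 3 at the bottom. With the most abundant transcript of each library left out of the total, only the bottom place of sort 3 held in all 3. Sort 2 then stayed highest in high cells (2.35%), but sort 1 was highest in low (1.11%) and sort 4 in negative cells (0.475%). Within each sort, 187 or 188 members were higher in high than in low cells, with medians of 1.16 to 1.25, and 188 or 189 had more in low than in negative ones, with medians of 1.56 to 2.04.

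SMED30031235, the member with the lowest L after irradiation, had the largest difference between low and negative cells. It measured 1102, 1626, 431 and 596 FPKM in the high libraries of sorts 1 to 4, 363, 419, 153 and 196 in the low ones and 17.0, 37.2, 4.23 and 14.7 in the negative ones. All low libraries lay above all negative ones, and within every sort high exceeded low and low exceeded negative. The low to negative difference was 4.08 ± 0.58 (log2, SE, n = 4 per group; limma, adjusted p = 0.000114). SMED30004679 measured 33.7, 28.5, 16.2 and 22.6 FPKM in low and 0.356, 4.00, 1.06 and 1.94 in negative cells, a difference of 3.32 ± 0.42 (limma, adjusted p = 4.95e-05), with no overlap.

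Between high and low cells the largest differences belonged to the pair that also led in X1 against X2. SMED30018987 measured 36.9, 33.5, 27.5 and 38.9 FPKM in high and 6.62, 7.30, 6.17 and 8.06 in low cells, a difference of 2.12 ± 0.32 (limma, adjusted p = 0.000933). SMED30012024 measured 47.2, 40.0, 36.1 and 49.5 FPKM in high and 10.3, 7.44, 8.50 and 11.9 in low cells, a difference of 2.08 ± 0.31 (limma, adjusted p = 0.000933). In negative cells SMED30012024 measured 0.418, 0.482, 0.234 and 0.651 FPKM, and all its low libraries lay above these. In X2 both overlapped Xins.

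The position of each intermediate population was expressed on the log2(FPKM + 1) scale as a percentage of the distance between the outer ones. X2 lay at a median of 25.8% of the way from Xins to X1, with a range of -40.4% to 95.3%, and was nearer to Xins than to X1 for 156 members. PIWI-1 low lay at a median of 58.5% of the way from negative to high, with a range of 11.1% to 97.5%, and was nearer to high for 141 members. Across the members the positions went together (Pearson r = 0.75, Spearman rho = 0.78, 189 transcripts), as a description only, since transcripts of the same libraries are not independent. L after irradiation went only weakly with the X2 position across the members (Pearson r = 0.23, Spearman rho = 0.30). It went more strongly with L for X1 against Xins (Pearson r = -0.54), which enters the X2 position. The relation was stronger still with L for PIWI-1 high against negative (Pearson r = -0.73). With the PIWI-1 low position L after irradiation hardly went together (Pearson r = 0.01, Spearman rho = 0.12). All of these L values chose the members, so this too is a description only. When the members were ranked by L after irradiation and divided into 3 equal classes of 63, the median X2 position was 12.8% in the class with the strongest loss (median 12.7% left), 31.0% in the middle one and 38.7% in the mildest (50.1% left). The median PIWI-1 low position was 55.9%, 61.3% and 61.3% in the same classes, and the median L at 72 hr was 0.60, 0.58 and 0.56.

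**Figure D3:**
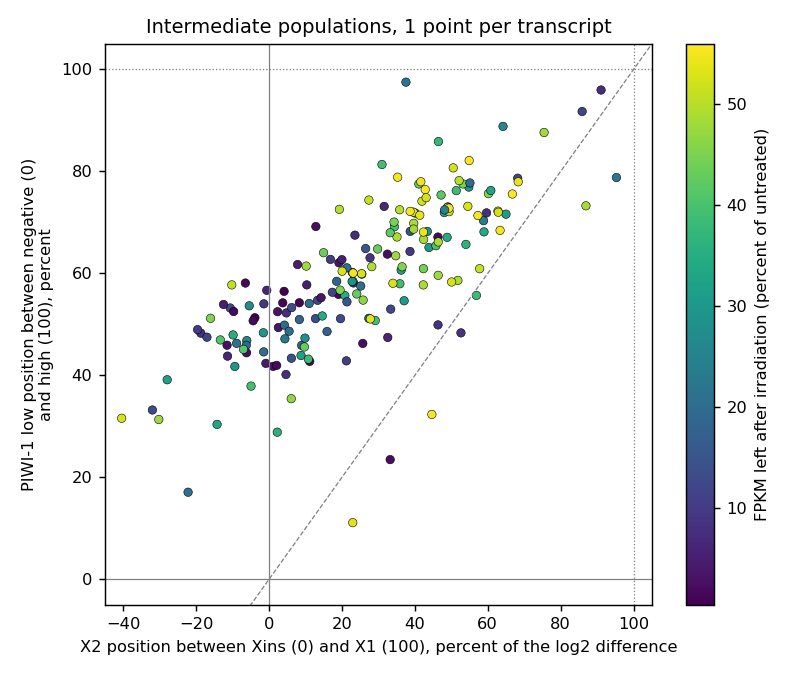
Position of X2 between Xins (0) and X1 (100) against position of PIWI-1 low between PIWI-1 negative (0) and high (100), in percent of the log2 difference, 1 point per transcript, coloured by the share of FPKM left after irradiation; the dashed line marks equal positions. Most points lie above the dashed line: the median is 25.8% for X2 and 58.5% for PIWI-1 low, and 34 transcripts have a negative X2 position.

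Over regeneration the members stayed within the limit by which they were chosen, and most moved inside it. The median L against 0 hr was 0.07 at 1 hr, -0.10 at 6 hr, 0.22 at 24 hr, 0.57 at 72 hr, 0.50 at 5 days and 0.28 at 14 days. Above 0 hr were 71 of 189 members at 6 hr, 164 at 72 hr and 168 at 14 days. The 6431 transcripts with at least 5 FPKM in X1 had a median of -0.05 at 6 hr, 0.34 at 72 hr and 0.24 at 14 days. These medians lay above the members at 6 hr and below them at 72 hr and 14 days. Of the 6431, 40.2% lay above 0 hr at 6 hr, 79.7% at 72 hr and 78.1% at 14 days. For the members these shares were 37.6%, 86.8% and 88.9%. With median-ratio scaling the members' median was 0.05 at 6 hr, 0.40 at 72 hr and 0.02 at 14 days. Thus the sign at 6 hr turned and the value at 14 days came close to 0. The scaled median of the 6431 was 0.14 at 6 hr, 0.14 at 72 hr and -0.02 at 14 days. On that scale 102 members lay above 0 hr at 6 hr, 146 at 72 hr and 107 at 14 days.

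The highest mean fell at 72 hr for 79 members, at 36 to 72 hr for 103, at 4 to 14 days for 67 and at 24 hr or earlier for 19. The lowest mean fell at 6 hr for 69 members, at 0 hr for 58 and within the first 24 hr for 179. The difference from 0 hr that was largest in size was positive for 142 members and negative for 47. It stayed under 0.5 at every time for 30 members and reached 0.8 for 65. These counts were not made over all transcripts, so nothing is read from them as a trait of the members. The median of the 6431 transcripts with at least 5 FPKM in X1 was also lowest at 6 hr, at -0.05, and was 0.34 at 72 hr.

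Steadiness by this rule is a statement about the log2(FPKM + 1) scale. As a plain ratio of mean FPKM to that at 0 hr, 63 of 189 members changed at least 2-fold at some time, 49 of them upward and 16 downward, with members that did both counted in each. Of these, 52 were among the 89 members with under 5 FPKM at 0 hr, and 11 among the 100 with more. SMED30018987 is an example of a low member: it measured 3.37, 3.17, 3.27 and 1.99 FPKM at 0 hr and 6.40, 5.47, 7.41 and 7.83 at 72 hr, with no overlap between the libraries, and was chosen for this example after its values were seen.

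The steadiest members were SMED30007399, whose L never exceeded 0.17 in size, and SMED30031315, whose largest was 0.24. SMED30007399 measured 10.0, 8.16, 9.42 and 8.08 FPKM at 0 hr, 7.99, 10.5, 10.0 and 11.6 at 72 hr and 11.6, 9.60, 10.2 and 9.17 at 14 days. These ranges overlapped at all 3 times. In the same transcript, untreated worms held 10.1, 10.0 and 11.1 FPKM and irradiated worms 5.29, 5.004 and 5.12, a contrast the rule used. SMED30031315 measured 11.9, 11.2, 11.2 and 10.7 FPKM at 0 hr and 13.7, 12.8, 11.4 and 14.1 at 14 days.

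**Figure D4:**
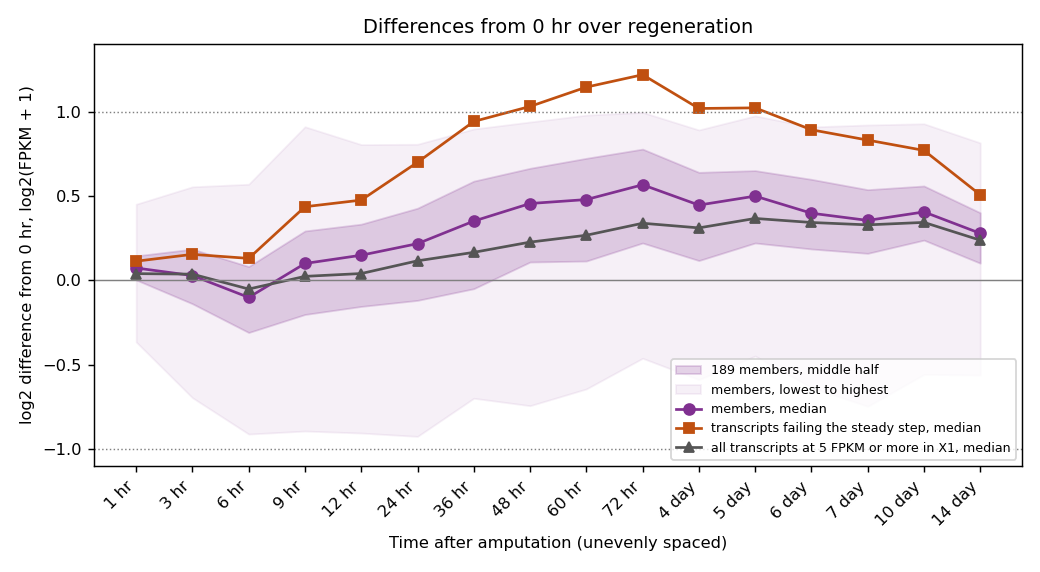
Log2 difference from 0 hr on the log2(FPKM + 1) scale at each of the 16 later times (unevenly spaced), as the median, quartiles and range of the 189 members, with the medians of the 137 transcripts that failed the steady step and of the 6431 transcripts with at least 5 FPKM in X1; dotted lines mark the limit of the rule. The members' median reaches 0.57 at 72 hr, between 0.34 for all transcripts and 1.22 for those that failed the step. The step itself picked the latter for larger changes than the members.

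Of the 326 transcripts that passed the first steps, 189 or 58.0% were steady. Of the 581 transcripts that met the X1 and PIWI-1 steps but not the irradiation step, 85.5% were. Among all 6431 transcripts with at least 5 FPKM in X1 the share was 86.0%, so steadiness is not particular to the members. These shares describe the rule and were not tested. The L against 0 hr that was largest in size had a median size of 0.72 for the members and 0.58 for the 6431. The 137 transcripts that were not steady, picked by the rule for larger changes, had a median L of 1.22 at 72 hr and 0.51 at 14 days. The median X1 mean was 54.4 FPKM for the 137 and 47.0 for the members, the highest 6459 and 1362, and the median in PIWI-1 high cells 45.4 and 33.6. Together the 137 took 3.20% of the FPKM in X1, where the 189 members took 1.93%. The median length was 938 and 936 bases. The 137 had a median of 16.04% left after irradiation, where the members had 30.6%.

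The rule bounds each time against 0 hr only, so differences among later times were tested, in a fit of all 68 libraries that included 187 of the members. The F test over the 16 later times passed for 182 of the 187 members, against 90% of the 24546 transcripts tested. With a range of at least 1 among the time means as well, 34 members were called, against 35.8% of all transcripts. The bound on each time limits the range a member can reach, so nothing is read from the difference between these shares. The count was 22 without the 3 hr and 6 hr libraries, 15 with median-ratio scaling and 73 with a pseudocount of 0.1.

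SMED30027672 had the widest range, 1.84 (limma F test, adjusted p = 1.98e-25). It measured 47.0, 40.0, 38.2 and 43.8 FPKM at 0 hr, 20.5, 21.0, 25.03 and 20.6 at 24 hr and 87.7, 87.9, 77.6 and 70.1 at 7 days. The libraries of these times did not overlap, and the level at 14 days, 38.3 to 60.1 FPKM, overlapped that at 0 hr. SMED30023969 had a range of 1.44 (limma F test, adjusted p = 8.37e-20), from 6.82, 7.75, 10.1 and 8.68 FPKM at 12 hr to 24.2, 24.7, 24.2 and 23.7 at 14 days.

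Between 1 hr and 6 hr, 4 members rose, against 5.46% of all transcripts, and 60 fell, against 27.5%, here with an adjusted p under 0.05 and no minimum size. The median difference was -0.18 over the members and -0.17 over all transcripts, and after median-ratio scaling, which moved the median of all transcripts to -0.01, 30 members were called higher and 26 lower. The 60 that fell without scaling were 32.1% of the 187 members tested, near the share of all transcripts, so the falls are not read as a trait of the members. With median-ratio scaling falls no longer outnumbered rises among the members. The shares of all transcripts called with scaling are not given here, so nothing is read from the scaled counts as a trait of the members. The libraries at 6 hr lay wholly above those at 1 hr for 4 members, against 4.78% of all transcripts, and wholly below for 44, against 25%. SMED30022145 fell by 0.99 ± 0.12 (log2, SE, n = 4 per group; limma, adjusted p = 3.86e-09), from 7.13, 5.603, 5.84 and 4.12 FPKM at 1 hr to 3.27, 2.45, 2.36 and 1.48 at 6 hr. SMED30023969 fell by 0.98 ± 0.13 (limma, adjusted p = 3.04e-08), from 15.4 to 20.0 FPKM down to 6.38 to 9.91. In neither transcript did the times overlap.

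The members that rose by 6 hr changed little. SMED30005658 rose from 3.52, 3.85, 3.67 and 4.23 FPKM to 4.66, 4.88, 6.15 and 5.50, a difference of 0.38 ± 0.12 (limma, adjusted p = 0.0126), which no longer passed without the 6 hr library numbered 5 (adjusted p = 0.0626). SMED30003242 rose from 6.07, 6.13, 6.37 and 6.66 FPKM to 8.64, 8.72, 6.89 and 7.51, a difference of 0.29 ± 0.09 (limma, adjusted p = 0.0136). It did not pass without the 6 hr libraries numbered 1 or 4 (adjusted p = 0.0550 and 0.0598).

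From 6 hr to 60 hr, 148 members rose, against 54.4% of all transcripts, and 2 fell, against 9.98%. The median difference was 0.55 over the members and 0.36 over all. Median-ratio scaling moved the latter to 0.08 and left 75 members higher and 13 lower, with a member median of 0.20. For these scaled counts no share of all transcripts is given here. The libraries at 60 hr lay wholly above those at 6 hr for 128 members, against 47.4% of all transcripts, and wholly below for 1, against 7.37%. SMED30014417 rose by 1.33 ± 0.13 (limma, adjusted p = 3.28e-13), from 3.51, 2.43, 3.13 and 2.64 FPKM to 9.42, 6.87, 10.1 and 9.22. SMED30004679, also among the transcripts that set PIWI-1 low apart from negative cells, rose by 1.14 ± 0.13 (limma, adjusted p = 3.12e-11), from 4.94, 5.58, 6.04 and 4.67 FPKM to 12.0, 14.5, 12.2 and 13.01. SMED30007465 fell by 0.39 ± 0.08 (limma, adjusted p = 4.18e-05), from 96.1 to 109 FPKM down to 76.1 to 87.0, and in all 3 the times did not overlap.

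From 60 hr to 14 days, 77 members fell, against 13.6% of all transcripts, and 18 rose, against 25.2%. The median difference was -0.19 over the members and 0.05 over all, and with scaling 87 members were called lower and 15 higher. The shares of all transcripts above are without scaling and are no background for these scaled counts. The libraries at 14 days lay wholly below those at 60 hr for 66 members, against 11.5% of all transcripts, and wholly above for 21, against 22%. SMED30017514 fell by 0.75 ± 0.17 (limma, adjusted p = 0.000346), from 7.20, 6.58, 6.57 and 6.07 FPKM to 3.80, 4.72, 2.62 and 3.22. SMED30024468, the member with the lowest X1 mean, fell by 0.73 ± 0.09 (limma, adjusted p = 7.19e-10), from 11.1, 9.34, 12.4 and 11.7 FPKM to 6.82, 6.19, 6.14 and 5.94. In the other direction SMED30023969 rose by 1.06 ± 0.13 (limma, adjusted p = 7.81e-10) and SMED30023708 by 0.86 ± 0.15 (limma, adjusted p = 2.00e-06), the latter from 9.05, 6.36, 10.2 and 5.80 FPKM to 14.04, 12.9, 15.8 and 16.6. None of the 4 overlapped between the times. The 3 contrasts share the libraries at 6 hr and 60 hr, so they are not separate evidence of a rise and a return. The rule bounded the mean at each of these times against 0 hr, so in none of the 3 is anything read from the members' shares against those of all transcripts.

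The share of each library's FPKM taken by all members together is dominated by the most abundant ones. It was 1.93% ± 0.0814 in X1, 0.879% ± 0.0296 in X2 and 0.558% ± 0.0627 in Xins (SD, n = 3), and 0.330% ± 0.00473 in untreated and 0.135% ± 0.00243 in irradiated worms. The rule used X1 against Xins, PIWI-1 high against negative and irradiated against untreated, so those differences in share are built in. During regeneration the share was 0.292% ± 0.0165 at 0 hr, 0.259% ± 0.0146 at 6 hr, 0.420% ± 0.0197 at 72 hr and 0.375% ± 0.00569 at 14 days (SD, n = 4). No library at 72 hr overlapped those at 0 hr. Over the same interval the summed share of the 137 transcripts that were not steady went from 0.408% at 0 hr to 1.08% at 72 hr. The steady step separated the 137 from the members, so a larger change in the 137 was partly fixed by the rule. In the sorted cells the share depends on the most abundant transcript of each library. With it left out of the total, the members took 3.08% ± 0.0403 of X1, 1.32% ± 0.0346 of X2 and 0.778% ± 0.0791 of Xins libraries (SD, n = 3). In the PIWI-1 sorts they then took 2.03% ± 0.314 of high, 1.05% ± 0.0814 of low and 0.347% ± 0.146 of negative libraries, where they took 1.39% ± 0.393, 0.648% ± 0.174 and 0.179% ± 0.0762 with it (SD, n = 4).

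**Figure D5:**
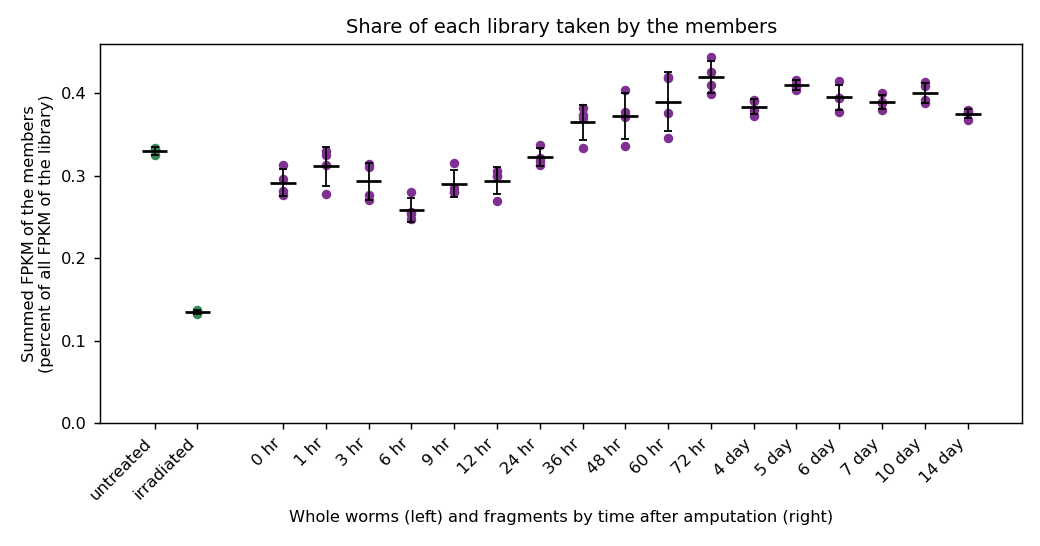
Summed FPKM of the 189 transcripts as a percentage of all FPKM of each library, 1 point per library with the mean and SD, in whole worms (3 libraries per group) and regenerating fragments (4 per time). The mean share is 0.330% in untreated and 0.135% in irradiated worms, and in fragments it runs from 0.259% at 6 hr to 0.420% at 72 hr.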

How the data were processed

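PolyA RNA was sequenced from sorted cells, whole worms and regenerating fragments. The authors deposited 3 tables of FPKM with 36035 transcripts and 96 libraries. Bowtie2 2.2.9 and edgeR are named, without a role, in the submitters' processing notes, and the genome build and counting method are not given in the sources used here. The members, the comparison lists and the 4 times contrasted were chosen with earlier results of these data known. A total and a length that turn FPKM into whole reads were recovered for each library and transcript. Of the values checked per library, 99.9% or more came out whole. The limit was 0.05 of a read, or wider for large values, in proportion to the value. Lengths were solved from the regeneration values, so whole reads there are partly built in. The recovered reads served only for depth, and no count test was run on them. The tests rest on the spread between libraries.

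Differences were fitted with limma 3.58.1 in R 4.3.3 (lmFit, eBayes with trend, two-sided, Benjamini-Hochberg over all transcripts tested) on log2(FPKM + 1), which understates changes of low transcripts. A transcript entered with at least 1 FPKM in 3 libraries (X cells) or 4 (PIWI-1 sorts, regeneration). The scripts were tested on simulated data. For each comparison the text names the first 2 members per direction by size among called members whose libraries do not overlap and whose higher group has a mean of 5 FPKM or more, plus the extremes of the rule and the transcripts nearest its thresholds. Tables were fitted separately. Alternatives were another pseudocount, no filter, median-ratio scaling, the replicate number as a block and leaving out libraries. All 12 pairs of PIWI-1 libraries with the same sort number deviated together from their group means (median correlation 0.67), so these numbers pair the libraries, as read from the data. No 2 replicates agreed within sampling noise (135 pairs). The library placed in no group entered no comparison.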

Additional observations from a re-analysis of the deposited data

Results flagged for a closer look

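At 9 hr, the library numbered 5 stood apart from the other 3 of its time in the summed share of the members, at 0.316% against 0.280% to 0.286%. Of 20 groups of 4 libraries tested for this share and 30 for single transcripts, chance alone would mark about 1 in 20.

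In the whole-animal library that the labels place in no group, 188 of 189 members had more than 3 reads, with a median of 6.68 FPKM over the members, a summed share of 0.376% and 173.0 FPKM for SMED30031235. The title of this library names total RNA, and its values came with those of the PIWI-1 sorts. No control library belongs to it, and it entered no comparison, so its levels are not set beside those of the other worms.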

How the results depend on the processing

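No call of a named member reversed under the alternatives run, while the balance of members higher and lower at 6 hr against 1 hr went from 4 and 60 to 30 and 26 with median-ratio scaling. The number of members called higher in X2 than in Xins was 16, and it was 26 with a pseudocount of 0.1, 78 with median-ratio scaling and 9 to 25 when 1 library was left out. For PIWI-1 high against low it was 85, and 132 with scaling and 50 to 76 with 1 library left out. The F test with a minimum range called 34, and 73 with a pseudocount of 0.1, 15 with scaling, 22 without the 3 hr and 6 hr libraries and 33 to 45 with 1 library left out. For 60 hr against 6 hr 150 became 88 with scaling, and 143 to 150 with 1 library left out. The cause of these shifts was not tested, apart from the loss of libraries. Shares of all transcripts called are given only for the main settings, so the counts under the alternatives are not set against a background.

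The replicate number as a replicate block gave 122 (X1 against X2), 16 (X2 against Xins), 113 (PIWI-1 high against low), 171 (low against negative), 34 (later times), 67 (6 hr against 1 hr), 152 (60 hr against 6 hr) and 92 (14 day against 60 hr), and moved no count by over 1.5 times. Numbers did not pair the X libraries (3 of 9 pairs over a correlation of 0.1) or the regeneration libraries (75 of 365). Of 362 alternatives for the members named by a test, 359 kept the call.

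Membership itself depends on the settings. A steady limit of 0.5 left 30 members. A pseudocount of 0.1 gave 204 transcripts of which 135 are members, group medians 183 (167 shared) and median-ratio scaling 195 (101 shared), and leaving out 1 library 174 to 203. Depth limits the levels after irradiation, where 44 or 45 members had fewer than 10 reads per library, and in PIWI-1 negative cells, where 12 to 60 did.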
